A study of Homo sapiens with 4 samples.

Results

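The genes examined here are 9 members of the NRF2 and glutathione pathway: NFE2L2, KEAP1, GCLC, GCLM, SLC7A11, TXNRD1, SRXN1, NQO1 and HMOX1. They were chosen by name from knowledge of the pathway, with earlier results of these data known. They were picked out of a table of 20332 genes by Ensembl identifier. All 9 passed the filter on low counts, which kept 13744 genes for testing. RNA-seq was performed on LN-35 cells (2 libraries) and on LNCaP cells (2 libraries). LNCaP is an androgen-dependent line from a human prostate cancer, and its libraries are labelled WT with no treatment given. LN-35 is a subline of LNCaP that the study obtained by raising the dose of enzalutamide, an antagonist of the androgen receptor, and its libraries are labelled as resistance cells and as treated with that drug. A single serum medium is labelled for the LN-35 and LNCaP libraries, but by the study's methods the cells were moved to charcoal-stripped serum before selection. No source used here says whether drug was present when RNA was taken, so resistance, drug and medium cannot be told apart. LN-35 is a single subline, and although the study calls its experiments in general independently replicated, no label says so of these libraries, so a p-value covers only how far these samples spread, and that spread may be technical.

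NRF2, the protein made from NFE2L2, is a transcription factor that is mostly controlled by its stability. KEAP1 binds it and passes it to a CUL3 ubiquitin ligase, which marks it for destruction. Oxidants and electrophiles modify KEAP1, NRF2 then accumulates, pairs with a small MAF protein and binds antioxidant response elements beside genes for glutathione synthesis, thioredoxin recycling, quinone reduction and haem breakdown. The RNA of NFE2L2 therefore says little by itself about the amount of NRF2 protein, which was not measured here. In the prostate the pathway is known from the frequent silencing of GSTP1, a glutathione transferase, in cancer.

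The core of the antioxidant response element was looked for in the promoters of the members, since it is the sequence through which NRF2 acts. The letters searched were TGACNNNGC, read on either strand, where the other strand reads GCNNNGTCA, in RefSeq windows of 300 bases (250 before the start site and 50 after it, GRCh38.p14). Windows were at hand for 7 of the 9 members, 10 windows in all, and 4 of these windows, of 3 members, held a match. Over all 35116 windows, 13.3% held a match, and over the windows of tested genes 14.2%. Every match found in these windows is shown, and none was picked by the difference between the lines. Each line gives 29 bases, 5′ to 3′ on the strand of the gene, with the match in capitals.
GCLM, chr1:93909446-93909474, minus strand: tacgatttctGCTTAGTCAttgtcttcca
TXNRD1, first start site, chr12:104215670-104215698, plus strand: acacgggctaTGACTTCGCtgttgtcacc
TXNRD1, first start site, chr12:104215761-104215789, plus strand: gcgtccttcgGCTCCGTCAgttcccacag
TXNRD1, second start site, chr12:104286920-104286948, plus strand: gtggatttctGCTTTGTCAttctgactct
KEAP1, chr19:10502807-10502835, minus strand: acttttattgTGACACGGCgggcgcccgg
KEAP1, chr19:10502784-10502812, minus strand: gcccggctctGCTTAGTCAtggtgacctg
The GCLM match began 34 bases before its start site. The matches of the first TXNRD1 start site began 99 and 8 bases before it, and that of the second began 102 bases before. The KEAP1 matches began 54 and 31 bases before the start site. GCLM and KEAP1 held the same 9 letters, GCTTAGTCA. The windows of GCLC, NFE2L2, NQO1 and SRXN1 and that of the other KEAP1 start site held no match, which says only that these letters are not in those windows. A match is a run of letters and no measurement of binding. Every printed stretch except chr12:104215670-104215698 overlaps an annotated exon of some transcript. All 250 bases before the start site were annotated exon for NQO1, for the second TXNRD1 site and for a window of NFE2L2 and of KEAP1.

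The 9 genes did not move together. GCLC was higher in LN-35 cells, GCLM, TXNRD1 and NQO1 were lower by at least 3.03-fold, SLC7A11 and SRXN1 were lower by under 1.3-fold, and NFE2L2 was 1.27-fold higher. KEAP1 and HMOX1 were not called. Calls rest on edgeR's two-sided quasi-likelihood test over all 13744 genes, with an adjusted p (Benjamini-Hochberg) under 0.05. Of the 9 members, 2 were called higher and 5 lower, where 36.4% of all tested genes were called higher and 35.5% lower. With a fold of at least 2 as well, 1 member was higher and 3 were lower, against 18.4% and 14.2% of all tested genes. The median log2 fold change (LN-35 over LNCaP) of the members was -0.35, beside -0.0069 for all tested genes, and the median absolute change was 0.37, beside 0.61. So most members changed less than the typical tested gene, and NQO1 alone lay outside the range from the 5th to the 95th percentile of all genes, which ran from -2.44 to 4.62.

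**Figure D1:**
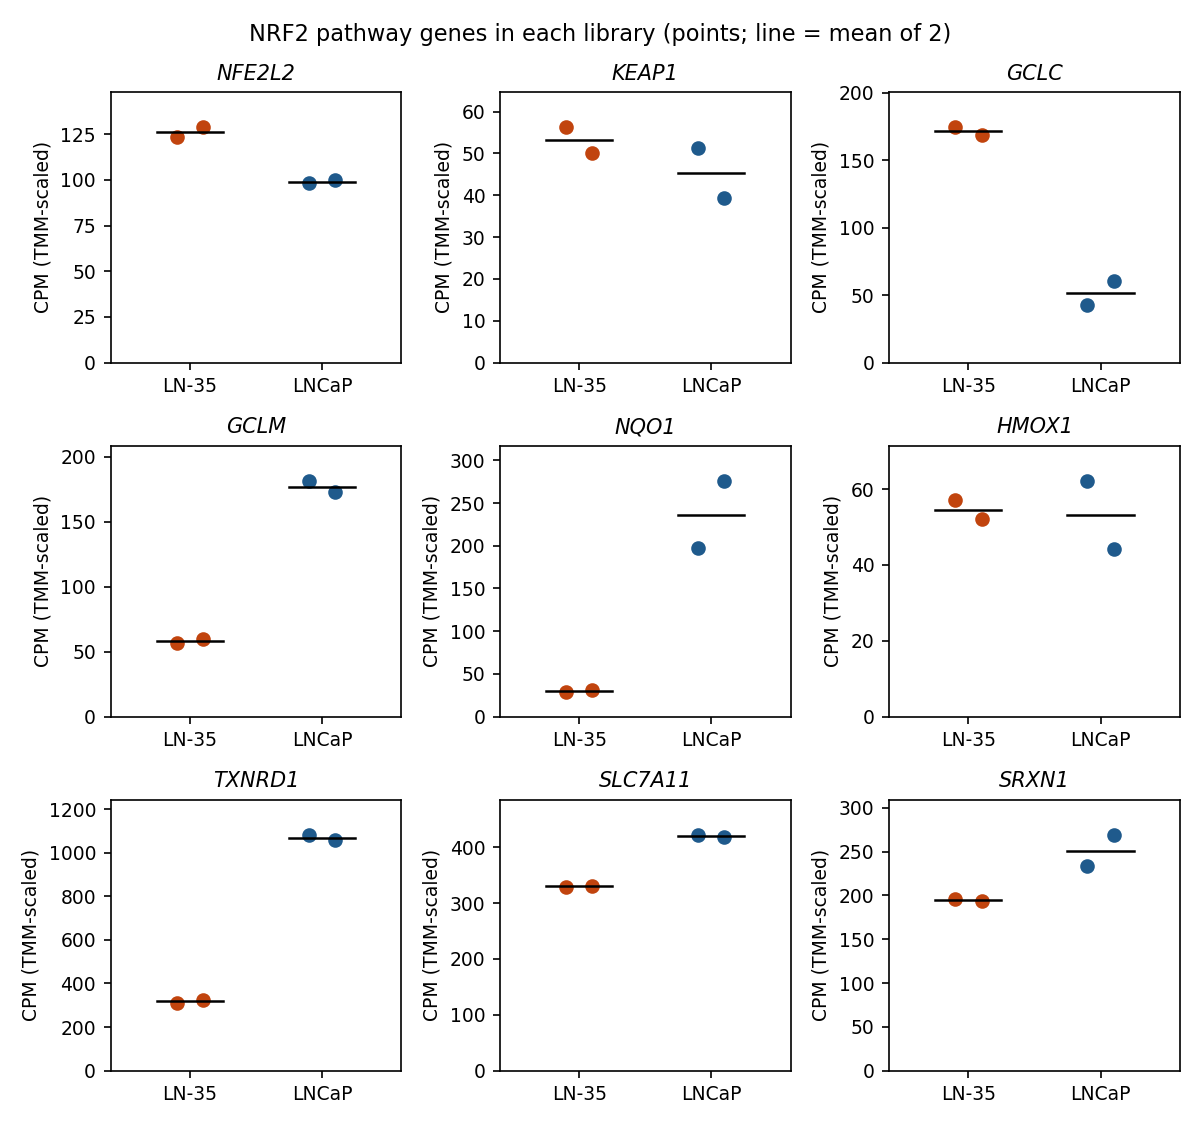
Level of each of the 9 genes in each library, in TMM-scaled CPM (y axis from 0), with LN-35 libraries in orange on the left and LNCaP libraries in blue on the right. Points are libraries and lines are means of 2, and the points of the lines overlap in height only for KEAP1 and HMOX1.

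Levels are given as CPM, the estimated counts per 1e6 counts after TMM scaling. NFE2L2 (ENSG00000116044, chr2:177227595-177392697, minus strand) encodes NRF2. It had 123 and 129 CPM in the LN-35 libraries, against 98.1 and 99.8 CPM in the LNCaP libraries. Both LN-35 libraries were above both LNCaP libraries. The means were 126 ± 3.94 CPM in LN-35 cells and 98.9 ± 1.22 CPM in LNCaP cells (SD, n = 2 each), which is 0.35 on the log2 scale (SE 0.074, edgeR adjusted p = 0.000205). The log2 ratio was 0.33 within repeat 1 and 0.37 within repeat 2, the repeats being what the labels give under a batch tag. Only 31.5% of tested genes had a smaller absolute change, so this rise was a small one for these data. In these bulk samples fewer cells of a type and less RNA per cell cannot be told apart. Exons of other genes covered 20.9% of the exon bases of NFE2L2, among them AGPS on the opposite strand, and no use of strand is stated. AGPS, an enzyme of ether lipid synthesis, had 39.7 and 38.5 CPM in LN-35 cells and 45.4 and 41.4 CPM in LNCaP cells (log2 fold change -0.15, edgeR adjusted p = 0.183).

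KEAP1 (ENSG00000079999, chr19:10486120-10503741, minus strand) encodes the sensor that delivers NRF2 to the ubiquitin ligase. Its level was 56.2 and 50.1 CPM in LN-35 cells, against 51.2 and 39.4 CPM in LNCaP cells. The groups overlapped, since the lower LN-35 library was below the higher LNCaP library. Means were 53.1 ± 4.36 CPM in LN-35 cells and 45.3 ± 8.39 CPM in LNCaP cells (SD, n = 2 each), and the log2 fold change of 0.23 (SE 0.11) did not pass edgeR's test (adjusted p = 0.0811). The 95% interval of the fold ran from 0.992 to 1.38, which takes in both no change and a rise. With the replicate number as a block the same change was called (log2 fold change 0.24, edgeR adjusted p = 0.0336), as it was without LNCaP replicate 1 (0.43, edgeR adjusted p = 0.00223) and without LN-35 replicate 2 (0.31, edgeR adjusted p = 0.0241). It was not called without LNCaP replicate 2 (0.048, edgeR adjusted p = 0.703), without LN-35 replicate 1 (0.15, edgeR adjusted p = 0.304), with scaling by library totals (0.15, edgeR adjusted p = 0.249) or by DESeq2 (adjusted p = 0.157). The log2 ratio was 0.13 within repeat 1 and 0.35 within repeat 2.

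The ratio of NFE2L2 to KEAP1, the factor over its inhibitor, was 1.38 and 1.62 in LN-35 libraries and 1.204 and 1.595 in LNCaP libraries, with levels taken per kilobase of exon. These values overlapped between the lines. By the likeness of their levels over the 4 libraries (the Euclidean distance between log2 CPM values centred on each gene's mean), the genes closest to NFE2L2 were HADHA, an enzyme of fatty acid oxidation in mitochondria (distance 0.0219), ZC3H4, a zinc finger protein (0.0243), and MTA1, a subunit of the NuRD chromatin complex (0.028). Such likeness was common, as 1178 tested genes lay within a distance of 0.2.

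Glutathione is made in a first step by glutamate-cysteine ligase, whose catalytic subunit is GCLC and whose modifier subunit is GCLM. The RNAs of the subunits differed between the lines in opposite directions. GCLC (ENSG00000001084, chr6:53497341-53616970, minus strand) had 175 and 169 CPM in LN-35 cells, against 43.0 and 60.6 CPM in LNCaP cells. The LNCaP libraries were far apart from each other for this gene, yet both lay well below the LN-35 libraries. It rose 3.32-fold, with means of 172 ± 3.95 CPM in LN-35 cells and 51.8 ± 12.5 CPM in LNCaP cells (SD, n = 2 each, log2 fold change 1.73, SE 0.14, edgeR adjusted p = 6.92e-06). Within repeats 1 and 2 the log2 ratios of GCLC were 2.02 and 1.48. GCLC was the only member that rose by more than 2-fold, and 80.2% of tested genes had a smaller absolute change. Exons of AL033397.1, a noncoding gene on the same strand, and of the antisense gene AL033397.2 covered 6.20% of the exon bases of GCLC.

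GCLM (ENSG00000023909, chr1:93885205-93909456, minus strand) had 56.6 and 60.1 CPM in LN-35 cells, against 181 and 173 CPM in LNCaP cells. Libraries of a line were close together and the lines did not overlap. GCLM was 3.03-fold lower, at 58.4 ± 2.46 CPM in LN-35 cells and 177 ± 5.92 CPM in LNCaP cells (SD, n = 2 each, log2 fold change -1.60, SE 0.077, edgeR adjusted p = 6.68e-15). Its promoter match, GCTTAGTCA, is printed above. The window of GCLC held none, and neither did that of NQO1, which was lower like GCLM. Any link between a match and the direction of a difference was not tested.

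Set against each other per kilobase of exon, GCLM over GCLC was 0.518 and 0.568 in the LN-35 libraries, against 6.71 and 4.54 in the LNCaP libraries. By this measure the catalytic subunit was the more abundant transcript in LN-35 cells, and the modifier was in LNCaP cells. The mean ratio was 0.543 ± 0.0353 in LN-35 cells and 5.63 ± 1.53 in LNCaP cells (SD, n = 2 each), a difference of -3.37 on the log2 scale. This ratio joins the changes of both genes given above, so it is a description of them, and no test was made.

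**Figure D2:**
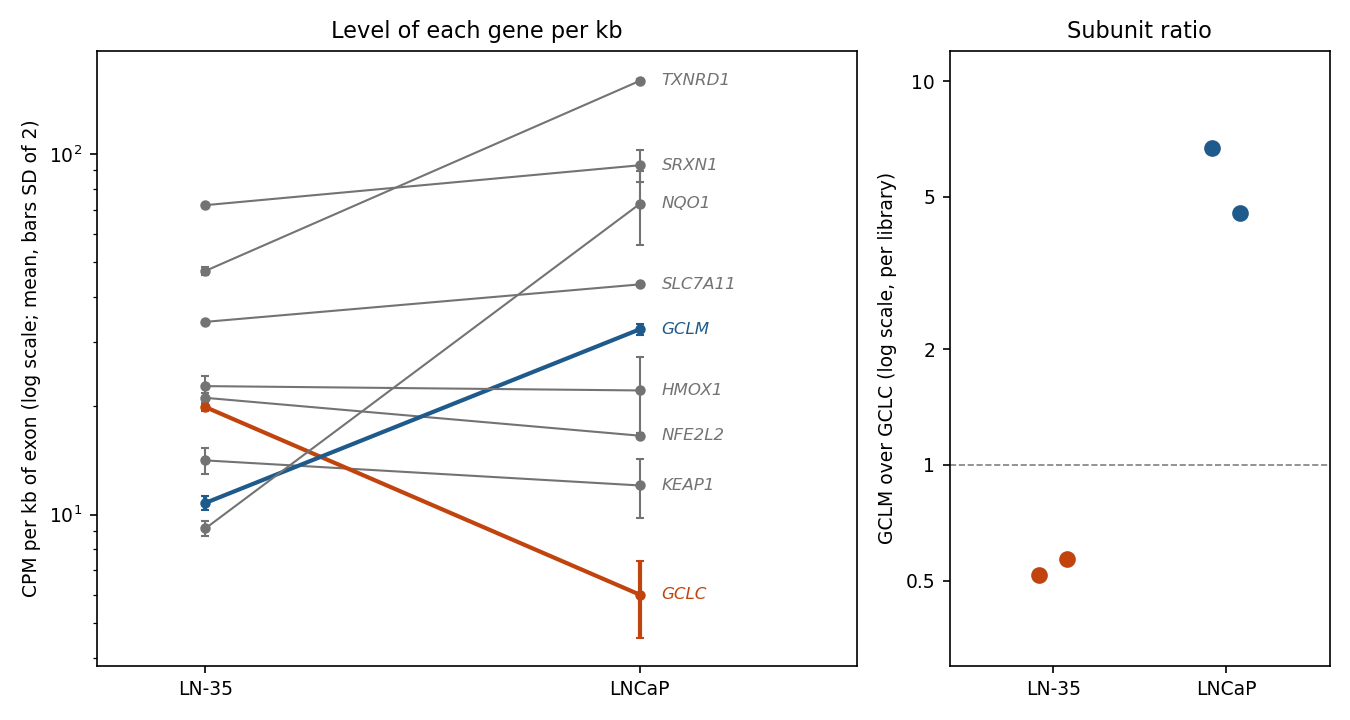
Left, level of each gene per kilobase of exon in LN-35 and LNCaP cells (CPM per kb, log axis, means with SD bars over 2 libraries), with GCLC in orange and GCLM in blue. Right, the ratio of GCLM to GCLC per kb in each library (log axis, dashed line at 1), which was 0.518 and 0.568 in LN-35 libraries and 6.71 and 4.54 in LNCaP libraries.

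SLC7A11 (ENSG00000151012, chr4:138164097-138242349, minus strand) encodes xCT, the transporter that brings in cystine for glutathione. It had 329 and 331 CPM in LN-35 cells, against 421 and 417 CPM in LNCaP cells. The spread within a line was small, and the LN-35 libraries were both lower. The 1.27-fold fall was called (log2 fold change -0.35, SE 0.067, edgeR adjusted p = 7.94e-05, n = 2 each), although 31.2% of tested genes changed less. SLC7A11 works as a dimer with SLC3A2, the heavy chain that it shares with other transporters. SLC3A2 had 347 and 326 CPM in LN-35 cells and 478 and 487 CPM in LNCaP cells, and it was lower too (log2 fold change -0.52, SE 0.069, edgeR adjusted p = 4.34e-07). Exons of the antisense gene SLC7A11-AS1 covered 8.97% of the exon bases of SLC7A11.

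On the thioredoxin side, TXNRD1 (ENSG00000198431, chr12:104215779-104350305, plus strand) encodes the cytosolic thioredoxin reductase, which uses NADPH to recycle thioredoxin. It had 312 and 324 CPM in LN-35 cells, against 1079.9 and 1059 CPM in LNCaP cells. The gap between the lines was many times the gap between libraries of a line. The fall was 3.37-fold, at 318 ± 8.24 CPM in LN-35 cells and 1069.5 ± 14.6 CPM in LNCaP cells (SD, n = 2 each, log2 fold change -1.75, SE 0.071, edgeR adjusted p = 2.23e-16), the smallest adjusted p of the 9. Its windows held 3 of the 6 promoter matches printed above.

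SRXN1 (ENSG00000271303, chr20:646615-653370, minus strand) encodes sulfiredoxin, which repairs overoxidized peroxiredoxins. Its libraries stood at 196 and 193 CPM in LN-35 cells, against 233 and 269 CPM in LNCaP cells. Both LN-35 libraries were lower, and the LNCaP libraries were further apart than the LN-35 ones. The 1.29-fold fall was called (log2 fold change -0.37, SE 0.074, edgeR adjusted p = 0.000122, n = 2 each), with log2 ratios of -0.25 and -0.48 within repeats 1 and 2. SRXN1 shares 85.0% of its exon bases with AL121758.1, a gene on the same strand, so reads of the pair cannot be told apart and its value is uncertain.

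NQO1 (ENSG00000181019, chr16:69706996-69726951, minus strand) encodes a quinone reductase that is widely used as a readout of NRF2. It fell the most of the 9 genes. NQO1 had 28.8 and 30.7 CPM in LN-35 cells, against 198 and 275 CPM in LNCaP cells. The LNCaP libraries differed from each other by far more than the LN-35 libraries did, and the lines were well apart. NQO1 was 7.93-fold lower, at 29.8 ± 1.36 CPM in LN-35 cells and 236 ± 55.1 CPM in LNCaP cells (SD, n = 2 each, log2 fold change -2.99, SE 0.20, edgeR adjusted p = 0.000119). The log2 ratios were -2.78 and -3.16 within repeats 1 and 2, and 88.2% of tested genes changed less. Exons of an antisense gene, AC092115.2, covered 17.7% of its exon bases.

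HMOX1 (ENSG00000100292, chr22:35380361-35394214, plus strand) encodes haem oxygenase, the inducible enzyme that breaks down haem, which is held down by BACH1 as well as raised by NRF2. It had 57.1 and 52.1 CPM in LN-35 cells, against 62.1 and 44.2 CPM in LNCaP cells. The LNCaP libraries enclosed the LN-35 libraries, so the groups overlapped in full. On the log2 scale the difference was 0.036 (SE 0.14, edgeR adjusted p = 0.835, n = 2 each), with a 95% interval of the fold from 0.823 to 1.28. Within repeats the log2 ratios had opposite signs, -0.12 in repeat 1 and 0.24 in repeat 2. Leaving out LNCaP replicate 1 gave a called rise (log2 fold change 0.30, edgeR adjusted p = 0.0190), and leaving out LNCaP replicate 2 gave -0.19 (edgeR adjusted p = 0.0982), so its direction depended on which LNCaP library was kept. The sign also turned without LN-35 replicate 1 (-0.023) and with scaling by library totals alone (-0.042).

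LNCaP replicate 2 stood above replicate 1 for NQO1, GCLC and SRXN1 and below it for KEAP1 and HMOX1, and these were the members with the widest LNCaP spread relative to their mean. In repeats 1 and 2 the log2 ratio of LN-35 over LNCaP was -1.68 and -1.52 for GCLM, -1.79 and -1.71 for TXNRD1, and -0.36 and -0.33 for SLC7A11. The summed level of the 9 genes was 1333 and 1338 CPM in LN-35 libraries and 2367 and 2437 CPM in LNCaP libraries, and TXNRD1 alone made up 23.4% and 24.2% of it in LN-35 libraries and 45.6% and 43.5% in LNCaP libraries.

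**Figure D3:**
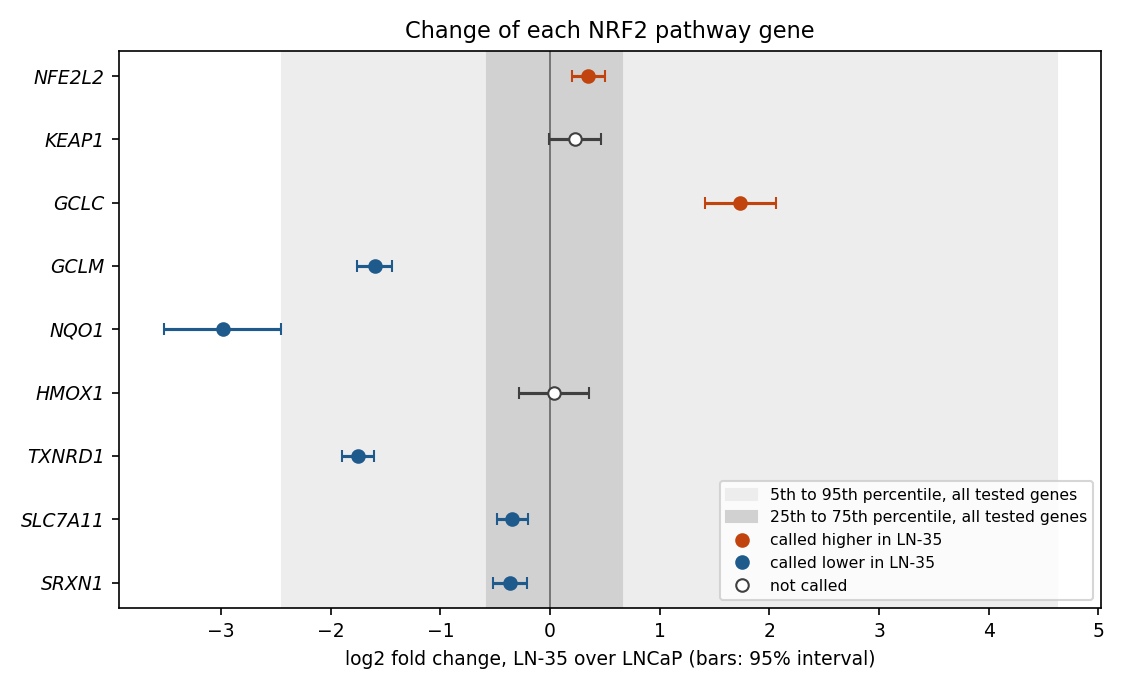
Log2 fold change of each gene, LN-35 over LNCaP (x axis), with its 95% interval from the edgeR fit. Filled orange and blue points were called higher and lower, open points were not called, and the grey bands give the spread of all 13744 tested genes, and only NQO1, at -2.99, lay beyond the wider band.

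Levels can be compared between genes only per length, so CPM was divided by the length of each gene's merged exons in kilobases. Merged exons join all annotated transcripts of a gene, so this length may differ from that of the transcripts expressed. The value of SRXN1 is uncertain also because it shares 85.0% of its exon bases with AL121758.1. In LN-35 cells the order from the highest was SRXN1 (72.1 ± 0.747 CPM per kb), TXNRD1 (47.4 ± 1.23), SLC7A11 (34.2 ± 0.151), HMOX1 (22.7 ± 1.49), NFE2L2 (21.1 ± 0.658), GCLC (19.9 ± 0.457), KEAP1 (14.1 ± 1.16), GCLM (10.8 ± 0.453) and NQO1 (9.15 ± 0.418), as mean and SD of 2 libraries. The neighbours HMOX1 and NFE2L2 differed by less than the sum of their SDs. In LNCaP cells the order was TXNRD1 (159 ± 2.18 CPM per kb), SRXN1 (93.0 ± 9.23), NQO1 (72.7 ± 16.9), SLC7A11 (43.5 ± 0.279), GCLM (32.6 ± 1.09), HMOX1 (22.1 ± 5.27), NFE2L2 (16.5 ± 0.205), KEAP1 (12.04 ± 2.23) and GCLC (5.996 ± 1.44). Here SRXN1 and NQO1 differed by less than the sum of their SDs. NQO1 held rank 9 in LN-35 cells and rank 3 in LNCaP cells, while GCLC held rank 6 in LN-35 cells and rank 9, the lowest, in LNCaP cells.

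The rest of the pathway was described with 10 lists of genes that hold none of the members. They list 106 genes, of which 93 passed the filter. Of these, 24 (25.8%) were called higher in LN-35 cells and 58 (62.4%) lower, where 36.4% of all tested genes were called higher and 35.5% lower. The same shares of all tested genes stand beside the counts of each list and marker set below. At a fold of at least 2, 11 were higher and 30 lower, against 18.4% and 14.2% of all tested genes. The median log2 fold change of the 93 genes was -0.57, beside -0.0069 for all tested genes. The lists were chosen with earlier results of these data known, so these shares are a description, with no test of the lists. Some of the called genes passed the filter only through the line where they were higher, so the shares also lean on the filter. The members named below are those with the smallest adjusted p in each direction, at most 2 per direction and list. Others are named for their role beside a member or a named gene, among them MAFG, MAFK, TXN, TXNRD2, AKR1C1 and AKR1C2, or where another reason is given.

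**Figure D4:**
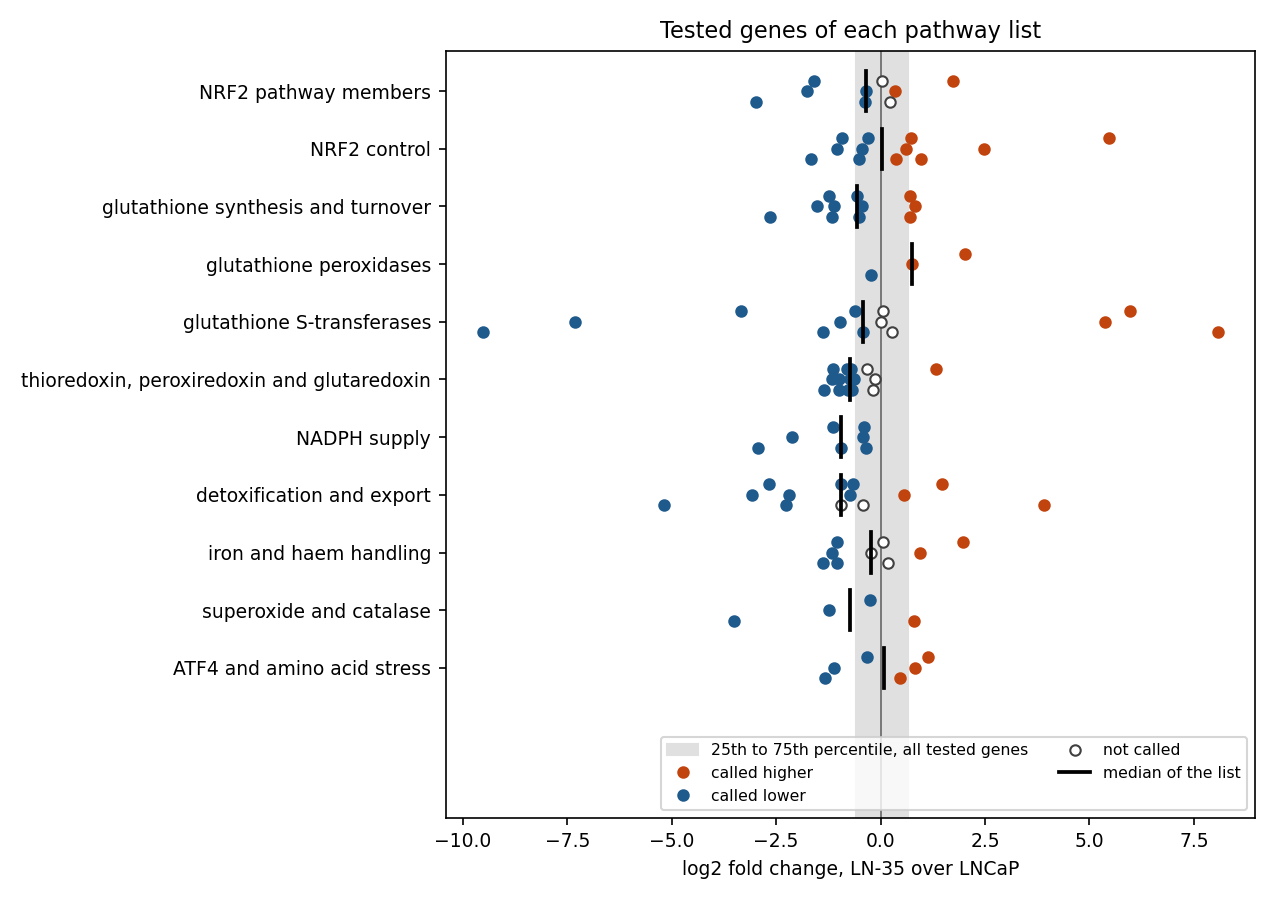
Log2 fold change of each tested gene (x axis, LN-35 over LNCaP) in the members and in 10 further lists (rows), with called genes in orange (higher) and blue (lower), open points for genes not called and a black bar at the median of the list. The 7 genes of NADPH supply were all called lower, as were 11 of the 15 genes around thioredoxin and 35.5% of all tested genes.

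Of the genes for proteins that control NRF2, 6 were called higher and 6 lower of 12 tested, with a median of 0.041. All tested genes were divided about as evenly, with 36.4% called higher and 35.5% lower. SQSTM1, which encodes p62, a protein that draws KEAP1 into autophagy and is itself a target of NRF2, was 3.19-fold lower, with 439 and 442 CPM in LN-35 cells and 1392 and 1422 CPM in LNCaP cells (log2 fold change -1.68, SE 0.071, edgeR adjusted p = 5.1e-16). NFE2L3, a relative of NRF2, was 2.05-fold lower. The small MAF partners MAFF, MAFG and MAFK were all called higher. MAFF had 15.9 and 10.8 CPM in LN-35 cells and 1.71 and 3.08 CPM in LNCaP cells, and it rose 5.61-fold (edgeR adjusted p = 7.68e-08). BACH2, a repressor related to BACH1, had 10.7 and 11.1 CPM in LN-35 cells and 0.190 and 0.287 CPM in LNCaP cells. This was a 44.5-fold rise over only 7 counts in LNCaP. BACH2 passed the filter only through LN-35, so its call leans on the filter, as does the count above. BACH1, the repressor of HMOX1, is named for that role and was called lower, with 41.0 and 42.3 CPM in LN-35 cells and 65.8 and 52.9 CPM in LNCaP cells (log2 fold change -0.51, SE 0.10).

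Of the genes for glutathione synthesis and turnover other than the members, 3 were called higher and 8 lower of 11 tested, with a median of -0.57. The RNAs of CTH and CBS, 2 enzymes of the route that supplies cysteine from methionine, were lower. CTH, which makes cysteine from cystathionine, had 6.997 and 5.47 CPM in LN-35 cells and 37.6 and 41.1 CPM in LNCaP cells, a 6.31-fold fall (edgeR adjusted p = 1.71e-13). CBS, which makes cystathionine, was 2.25-fold lower. GSS, the glutathione synthetase that completes the tripeptide, and GSR, the reductase that recycles it, were also called lower and are named for those roles, at log2 fold changes of -1.12 and -0.44. GSS, like GCLM, was thus lower while GCLC was higher. GGT7 (1.78-fold), of the gamma-glutamyltransferase family, and OPLAH (1.63-fold), which opens the ring of 5-oxoproline, rose.

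Among glutathione peroxidases, 3 of 6 were tested, 2 called higher and 1 lower, with a median of 0.75. GPX4, which reduces lipid peroxides in membranes, had 306 and 305 CPM in LN-35 cells and 169 and 194 CPM in LNCaP cells, a 1.68-fold rise (edgeR adjusted p = 3.62e-09). GPX8, an enzyme of the endoplasmic reticulum, rose 4.09-fold. GPX1 was 1.16-fold lower (edgeR adjusted p = 0.0278), and it was not called by DESeq2 (adjusted p = 0.124) or by edgeR without LN-35 replicate 2 (adjusted p = 0.258) or LNCaP replicate 2 (adjusted p = 0.206).

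Among glutathione S-transferases, 3 were called higher and 7 lower of 13 tested, with a median of -0.43. Of those called, GSTM2, GSTM4, GSTA1 and GSTT2B passed the filter only through the line where they were higher, so these counts of calls lean on the filter. GSTO2 had 117 and 122 CPM in LN-35 cells and 2.60 and 3.15 CPM in LNCaP cells, a 41.7-fold rise (log2 fold change 5.38, SE 0.13, edgeR adjusted p = 8.17e-21). GSTM4 had 10.99 and 12.2 CPM in LN-35 cells against 1 count in all in LNCaP cells, which gives a ratio of 344 (95% counting interval 61.3 to 13639). GSTM3 was 10.2-fold lower, with 4.50 and 6.68 CPM in LN-35 cells and 59.4 and 55.1 CPM in LNCaP cells, and MGST1, a microsomal enzyme, was 2.61-fold lower. GSTA1 and GSTT2B had no counts in LN-35 cells and were at least 11.8-fold and 54.8-fold lower against a floor of 3 counts over the group (named after their values were seen), and the median of the family is the same with both at these bounds. Genes of this family share sequence, so counts may be divided between them. GSTP1, which was not tested, had 0 and 4 counts in LN-35 cells and 4 and 5 counts in LNCaP cells.

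The genes around thioredoxin were mostly lower, with 1 called higher and 11 lower of 15 tested and a median of -0.73. All 6 peroxiredoxins, thiol peroxidases most of which thioredoxin recycles, were called lower, as was TXN, thioredoxin itself. PRDX3, the mitochondrial peroxiredoxin, had 110.4 and 107 CPM in LN-35 cells and 284 and 270.5 CPM in LNCaP cells, a 2.55-fold fall, and PRDX4, that of the endoplasmic reticulum, was 1.98-fold lower. TXNRD2, the mitochondrial reductase, was not called, at log2 fold change -0.19 with a standard error of 0.10. GLRX2, a mitochondrial glutaredoxin, was 2.52-fold higher, with 99.7 and 98.3 CPM in LN-35 cells and 39.6 and 39.1 CPM in LNCaP cells.

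NADPH is the reductant that glutathione reductase, thioredoxin reductase and NQO1 use. All 7 tested genes of its supply were called lower, with a median of -0.95. ME1, cytosolic malic enzyme, had 28.6 and 25.4 CPM in LN-35 cells and 209 and 202 CPM in LNCaP cells, and it was 7.64-fold lower (log2 fold change -2.93, SE 0.086, edgeR adjusted p = 4.2e-19). IDH2 and PGD, which also make NADPH, are named after their values were seen and had log2 fold changes of -1.15 and -0.35.

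For detoxification and export, 3 were called higher and 8 lower of 13 tested, with a median of -0.94. EPHX1, microsomal epoxide hydrolase, had 60.1 and 57.2 CPM in LN-35 cells and 494 and 491 CPM in LNCaP cells, an 8.39-fold fall (edgeR adjusted p = 1.59e-20). ABCC4, an exporter of organic anions, was 36.4-fold lower, with 8.496 and 11.3 CPM in LN-35 cells and 404 and 317 CPM in LNCaP cells. ABCC2, an exporter of glutathione conjugates, was 14.9-fold higher at a low level. It had 3.17 and 5.15 CPM in LN-35 cells and 0.190 and 0.358 CPM in LNCaP cells. ABCC2 passed the filter only through LN-35, and AKR1C2 and CBR3 of this list only through LNCaP, so these counts of calls lean on the filter. AKR1C3, an aldo-keto reductase that also makes testosterone, was 2.78-fold higher while its relatives AKR1C1 and AKR1C2 were called lower, and these are near-identical genes between which reads may be divided.

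Iron and haem genes gave 2 higher and 4 lower of 9 tested, with a median of -0.22. The ferritin chains parted. FTL, the light chain, had 487 and 485 CPM in LN-35 cells and 216 and 289 CPM in LNCaP cells, a 1.93-fold rise, and FTH1, the heavy chain (named beside it), had a log2 fold change of -1.03. SLC40A1, the iron exporter ferroportin, rose 3.89-fold. FECH, which inserts iron to make haem, and SLC48A1, a haem transporter, were 2.24-fold and 2.60-fold lower. Of superoxide dismutases and catalase, 1 was higher and 3 lower of 4, with a median of -0.74. Mitochondrial SOD2 rose 1.74-fold and CAT was 2.35-fold lower. SOD3, the extracellular enzyme, had 14 and 0 counts in LN-35 cells and 91 and 104 counts in LNCaP cells, and it passed the filter only through LNCaP. Its log2 fold change of -3.50 (edgeR adjusted p = 0.00218) was not called by DESeq2 (adjusted p = 0.164) and was -2.49 without LN-35 replicate 2, and without LN-35 replicate 1 that line had no counts of it. SLC7A11 is also a target of ATF4, the factor of amino acid stress, and 3 of that list of 6 were higher and 3 lower, with a median of 0.071. ATF4 itself rose 1.79-fold, with 900.0 and 885 CPM in LN-35 cells and 447 and 554 CPM in LNCaP cells, and ASNS, asparagine synthetase, rose 2.20-fold, while DDIT3 and ATF3 were 2.16-fold and 2.51-fold lower.

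The libraries held 12225173 and 12892059 counts for LN-35 and 15333722 and 13598458 for LNCaP, and log2 CPM correlated at 0.988 and 0.990 between the libraries of LN-35 and of LNCaP over tested genes. Of 8 luminal prostate markers, 1 was called higher and 6 lower in LN-35 cells, against 36.4% and 35.5% of all tested genes. KLK3 and TMPRSS2 were among the lower ones, at log2 fold changes of -6.36 and -5.23, while KRT8 was higher at 0.97. The luminal markers summed to 2673 and 2644 CPM in LN-35 cells and 3592 and 3567 CPM in LNCaP cells. The largest part of these sums was FOLH1, which was not called (log2 fold change -0.12, edgeR adjusted p = 0.119). Leukocyte markers summed to 9.16 and 11.6 CPM in LN-35 cells and 9.65 and 12.04 CPM in LNCaP cells, most of it CD68, with CD3E at 0 in every library, and 1 of 5 was tested and not called. Fibroblast markers summed to 46.3 and 42.7 CPM in LN-35 cells and 45.1 and 36.3 CPM in LNCaP cells. Of 3 tested, DCN (at least 79.8-fold higher, with no counts in LNCaP cells) and LUM (log2 fold change 2.12) were higher, while COL1A1, which made up most of these sums, was not called (log2 fold change -0.24, edgeR adjusted p = 0.0796). Endothelial markers stood at 0.333 and 0.805 CPM in LN-35 cells and 5.65 and 6.67 CPM in LNCaP cells, nearly all VWF (log2 fold change -3.49), with CDH5 and KDR at 0 in every library. The 5 markers of other prostate lines summed to 169 and 173 CPM in LN-35 cells and 26.5 and 31.3 CPM in LNCaP cells. All 3 tested were higher, with VIM at log2 fold change 0.44 and LGALS1 at 6.72. CD44 (3 counts in LNCaP) had a ratio of 772 (95% counting interval 264 to 3749). CD44, LGALS1, DCN and LUM passed the filter only through LN-35, and VWF and the luminal marker ACP3 only through LNCaP. The calls of these genes therefore lean on the filter. AXL, not tested, had 2 and 4 counts in LN-35 cells and 7 and 10 counts in LNCaP cells. CAV1, not tested, had 4 and 16 counts in LN-35 cells and 2 and 0 counts in LNCaP cells. The part of all these markers in the results above was not tested. Counting intervals and floors cover counting error only.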

How the data were processed

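The data were RNA-seq of LN-35 and LNCaP cells, 2 libraries each, from TRIzol RNA and the NEBNext Ultra RNA kit. The authors deposited a table of estimated counts per gene, not scaled between libraries, and the submitters' processing notes list hg38, featureCounts 1.5.0-p3 and HISAT2 2.0.5. Between 11.5% and 12.0% of a library's values were not whole, by a step that no source used here names, which may divide reads between genes that share sequence. Use of strand is not stated. Counts were rounded. Symbols were found for 20304 of 20332 identifiers, and 140 of 142 listed genes were in the table (GSTT1 and GSTT2 were not). Positions and exon lengths were from GENCODE 29 on GRCh38, promoters from RefSeq.

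Genes were kept by filterByExpr (minimum count 10), scaled by TMM (factors 0.964 to 1.03) and tested with edgeR 4.0.16 in R 4.3.3 (limma 3.58.1, glmQLFit with robust=TRUE, design ~ group), checked beforehand on simulated data, with a biological coefficient of variation of 0.0667. Alternatives were DESeq2 1.42.0, DESeq2 size factors in edgeR, library totals, no filter, unrounded counts, leaving out each library and a replicate block. Under a batch tag the labels number the libraries of each line as repeats 1 and 2, which would pair them, but differences between repeats did not correlate between the lines (r = 0.00839 over tested genes). Tables and plots used matplotlib 3.10.9, numpy 2.4.6, pandas 2.3.3 and Python 3.11.15. A group without counts was set at a floor of 3 counts over its 2 libraries, 0.123 CPM in LN-35 and 0.101 CPM in LNCaP.

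Named genes were all 9 members, up to 2 called genes per direction and list with the smallest adjusted p, and the 3 genes closest to NFE2L2, and 1 gene that this rule names is not reported here. The members and lists were chosen with earlier results of these data known.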

Additional observations from a re-analysis of the deposited data

How the results depend on the processing

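The count of members called lower stayed at 5 under every alternative, and that of members called higher, 2 in the results above, was 3 without the filter and with the replicate block and between 2 and 4 when a library was left out (4 without LNCaP replicate 1). Genome-wide, between 4523 and 5210 genes were higher and between 4152 and 5432 lower. HMOX1 changed sign: its log2 fold change was -0.042 with library totals and between -0.19 and 0.30 when a library was left out (-0.023 without LN-35 replicate 1, -0.19 without LNCaP replicate 2), and the cause was not tested. KEAP1 was called higher without the filter (0.22, edgeR adjusted p = 0.0421), without LN-35 replicate 2 (0.31, edgeR adjusted p = 0.0241), without LNCaP replicate 1 and with the replicate block (0.24), and the block changed no other call of a named gene. GPX1 was not called by DESeq2, without LN-35 replicate 2 or without LNCaP replicate 2 (adjusted p 0.124, 0.258 and 0.206), nor SOD3 by DESeq2. Named genes here are only those picked by the rule stated with the processing, and the others of these kept direction and call. Genes reported for another reason, such as SLC3A2, BACH1, GSS, FTH1, AGPS and GSTA1, were not followed through the alternatives. With 2 libraries a line, small changes such as those of KEAP1 and HMOX1 are not resolved.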
